A study of Mus musculus with 12 samples.

Results

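The comparison described here is that of cells given MGT with cells given the control vector, both collected 3 days after the start of transduction. MGT stands for Mef2c, Gata4 and Tbx5, 3 cardiac transcription factors that are carried together by a retrovirus and used to turn fibroblasts into cardiomyocyte-like cells. Of the 12 libraries in the series, 4 enter this comparison directly, 2 with MGT and 2 with control vector. CPM is a count divided by all assigned reads of its library and multiplied by 1000000. Genes were kept where at least 2 of these 4 libraries reached 1 CPM, which left 12673 of the 23423 genes in the table. Near this limit a gene can be kept through the group where it is higher, and it can then hardly be called in the other direction.

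Hearts were taken from CD1 mice on postnatal day 1.5. Cardiac fibroblasts were released by enzyme digestion, enriched for the surface protein Thy1 with magnetic beads and plated on gelatin in serum-containing fibroblast medium. Control wells received the pMXs-puro retrovirus with no insert according to the source and protocol labels, while their titles carry the name lacZ. MGT wells received pMXs-puro-MGT. The vector names a puromycin resistance gene, but whether puromycin was added is not given in the sources used here. No Cre or transgene driver is named, and no step that separates transduced from untransduced cells is described, so both may be in 1 library. The other 8 libraries of the series are 2 each of MGT with a non-targeting hairpin (shNT), MGT with a hairpin against the splicing repressor Ptbp1 (shPtbp1), freshly isolated fibroblasts and freshly isolated cardiomyocytes. They share the estimate of replicate spread, and for some genes their levels are given beside the 4 libraries. A change described below is that of MGT alone against control and need not hold in the hairpin groups. The labels do not state whether the 2 libraries of a group stem from different animals or dishes. P-values therefore set the difference between MGT and control only against the spread of libraries within the groups of the series, which may be technical.

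In the heart, MEF2, GATA4 and TBX5 bind together near genes of the contractile apparatus, of calcium cycling and of the intercalated disc, and they are needed for the heart to form. Cardiac fibroblasts make the collagens, fibronectin and elastic fibres of the heart wall. When the 3 factors are forced into fibroblasts, a minority of cells switches on sarcomere genes over days to weeks, while matrix, inflammatory and proliferation genes are known to be held in check.

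The 4 libraries held between 86789976 and 94005212 reads assigned to genes, so that 1 read was worth 0.0106 to 0.0115 CPM, and over the 12 libraries the range was 49320859 to 94005212. CPM were divided by 1 scaling factor per library, between 0.960 and 0.983 in the 4, and are given below as scaled CPM. Differences are log2 fold changes of MGT minus control on the log2(scaled CPM + 0.5) scale, with their standard error and an adjusted p from limma over the 12673 genes, and "rose" or "fell" means an adjusted p below 0.05. A value in parentheses after a gene is its log2 fold change. All 8 fibroblast markers were detected in every one of the 4 libraries. In control, Col1a1 read 8261 and 9878 scaled CPM and Thy1 301 and 314. Fresh cardiomyocyte libraries held all 8 as well, so detection alone does not settle the cell type. Dcn, Pdgfra and Postn averaged 245, 104 and 2363 in control, below their fresh cardiomyocyte means of 1399, 195 and 3941. Col1a1, Col1a2, Ddr2, Tcf21 and Thy1 lay above theirs. Macrophage transcripts were present as well, with the 14 markers tested summing to 4583 and 4347 scaled CPM in control and to 4594 and 4459 with MGT, ranges that overlap. The lysozyme gene Lyz2 alone stood at 2255 and 2053 in control and 2288 and 2181 with MGT, against 160.0 in fresh fibroblasts. Leaving out 1 library at a time, Lyz2 passed without control replicate 1 (adjusted p = 0.0438).

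Tbx5 was the delivered factor that rose most. It read 648 and 681 scaled CPM in the control libraries and 1779 and 1859 with MGT, a log2 fold change of 1.45 ± 0.05 (adjusted p = 1.80e-15). Mef2c went from 315 and 332 to 724 and 766, or 1.20 ± 0.04 (adjusted p = 1.52e-15). Gata4 went from 343 and 377 to 687 and 705, or 0.95 ± 0.04 (adjusted p = 8.22e-14). For each of the 3, both MGT libraries lay above both control libraries with a wide gap. A bulk measurement cannot tell a larger number of expressing cells from more RNA per cell, here and for every gene that follows, and for genes that fell it cannot tell fewer cells of a type from less RNA per cell.

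The control wells were not at the level of fresh fibroblasts for these genes. Tbx5 averaged 7.15 scaled CPM in fresh fibroblasts and 15.05 in fresh cardiomyocytes, far below the control libraries. Mef2c averaged 137 in fresh fibroblasts and Gata4 216, also below control. The source of these reads in control wells was not tested, and reads from the virus cannot be told apart from reads of the resident gene in a gene count. With MGT and shNT the means were 1561 for Tbx5, 476 for Mef2c and 639 for Gata4, and with MGT and shPtbp1 they were 1709, 533 and 656. Ptbp1 itself did not pass the test in MGT against control: it read 356 and 363 in control and 366 and 382 with MGT, a log2 fold change of 0.06 ± 0.03 (adjusted p = 0.217), and 80.4 on average where its hairpin was added. The source label of 1 of the 2 shPtbp1 libraries reads shPtbp2, while its title and transduction label read shPtbp1. Ptbp1 read 81.7 and 79.1 in these 2 libraries. On the mouse GRCm38 assembly Tbx5 lies on chromosome 5 from 119832668 to 119885219, Mef2c on chromosome 13 from 83504034 to 83667080 and Gata4 on chromosome 14 from 63198922 to 63271692.

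**Figure D1:**
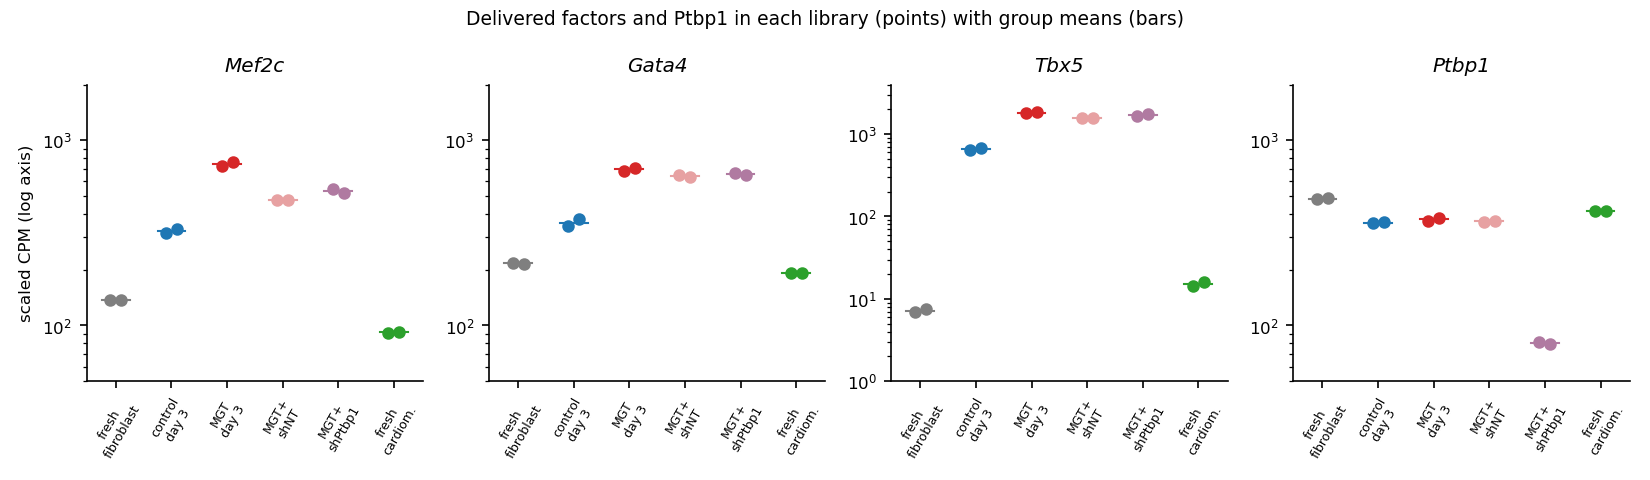
Level of Mef2c, Gata4, Tbx5 and Ptbp1 in scaled CPM on a log axis for the 2 libraries of each of the 6 groups (points) with the group mean (bar). The 2 MGT libraries lie above the 2 control libraries for the 3 delivered factors, control Tbx5 at 648 and 681 lies far above the fresh cells, and Ptbp1 is lowest with shPtbp1 at 80.4.

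Across all genes the difference between MGT and control was broad and shallow. It is measured from control wells that already held the delivered factors above fresh fibroblasts, Tbx5 at 665 against 7.15 scaled CPM on average. The size of a change from cells without such reads was not tested. By limma, 4968 of 12673 genes passed the test (39.2%), of which 2497 were higher with MGT (19.7%) and 2471 lower (19.5%), and 7705 did not pass. Changes of at least 2-fold were far fewer: 104 genes rose that much (0.821% of those tested) and 15 fell that much (0.118%). Of the 4968 calls, 4479 (90.2%) were smaller than 1.5-fold, and the middle 50% of all genes tested lay between -0.13 and 0.12 on the log2 scale around a median of -0.01. The 2 libraries of a group differed with a typical SD of 0.08 (MGT) and 0.09 (control) log2 units, so many small shifts exceed the replicate spread, and in 8693 genes (68.6%) the 2 groups did not overlap. These 19.7% and 19.5% of all genes are the background for the counts of list members. The 68.6% is the background wherever the control and MGT libraries of a gene are said to lie apart.

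**Figure D2:**
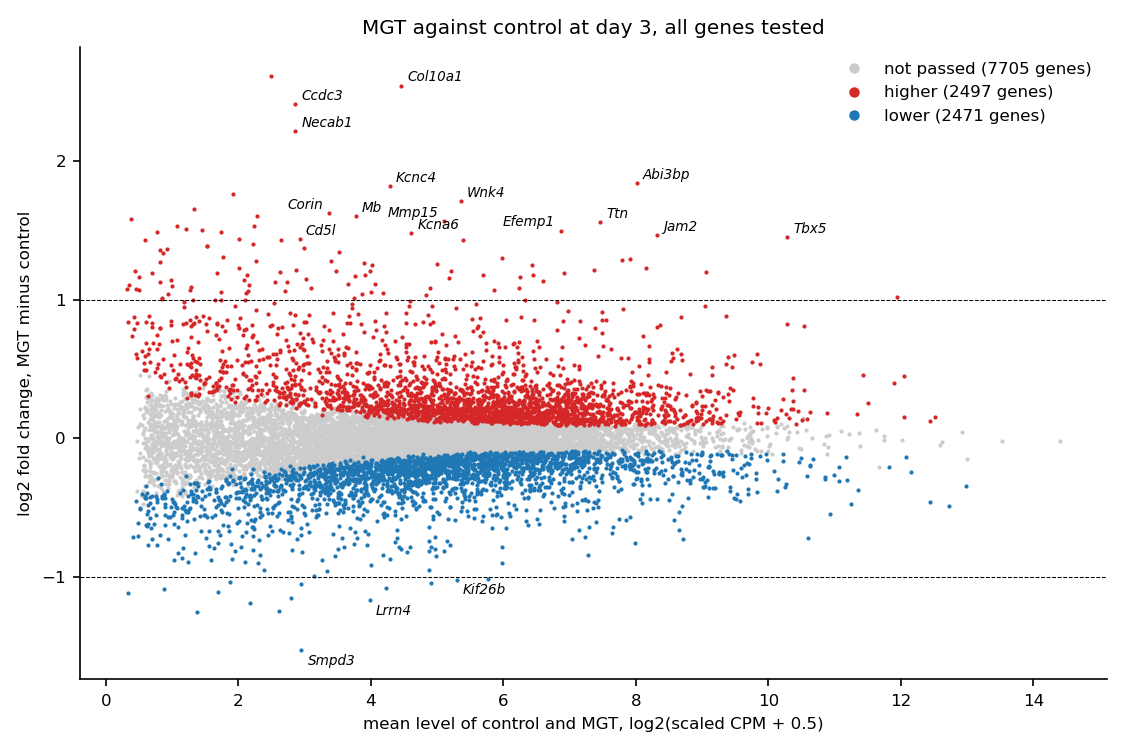
Log2 fold change of MGT minus control against the mean level of the 4 libraries, 1 point per gene tested, coloured by the test (2497 higher, 2471 lower, 7705 not passed), with dashed lines at 2-fold. Named points are the delivered factor Tbx5 and other genes with the largest changes among those at 10 or more scaled CPM, from Col10a1 at 2.54 to Smpd3 at -1.53.

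The 15 largest increases among genes that reached 10 scaled CPM held 1 sarcomere gene, Ttn. First was Col10a1, the network-forming collagen known from hypertrophic growth-plate cartilage, which read 5.60 and 6.28 in control and 36.5 and 37.5 with MGT, a log2 fold change of 2.54 ± 0.10 (adjusted p = 2.53e-14). Fresh fibroblasts averaged 0.0658 and fresh cardiomyocytes 0.0776, both far below the MGT level. Col10a1 lies on chromosome 10 from 34389981 to 34397085 (GRCm38). Ccdc3, a secreted protein of fat and endothelium, followed at 2.41, and Necab1, a neuronal calcium-binding protein, at 2.21. Both had low control levels of 1.81 and 2.07 scaled CPM.

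The other members of this group of 15 were of 3 kinds. Extracellular and membrane proteins were Abi3bp, a matrix protein that went from 111 and 113 to 398 and 408 (1.84 ± 0.03, adjusted p = 8.41e-20), Efemp1, a fibulin, from 62.7 and 59.1 to 163 and 183 (1.497), the membrane-bound protease Mmp15 (1.57), the junction adhesion molecule Jam2 from 169 and 171 to 459.6 and 479 (1.46) and Cd5l, a macrophage-secreted protein (1.44). Channels and their regulators were the potassium channels Kcnc4 (1.82) and Kcna6 (1.48) and the ion-transport kinase Wnk4 (1.71). Genes of the cardiomyocyte were Corin, the protease that activates atrial natriuretic peptide (1.62), the oxygen-binding protein Mb (1.60), the giant sarcomere protein Ttn (1.56) and the delivered Tbx5 (1.45). The control and MGT libraries did not overlap for any of the 15, by the rule that chose them. With MGT and shNT, Cd5l averaged 1.33 scaled CPM, below its control mean of 3.61. Mb averaged 7.08 there, near its control mean of 6.27, and the others of the 15 lay above control. With MGT and shPtbp1, Cd5l averaged 2.13 and Mb 19.7. The differences between the MGT groups were not tested.

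Most of the 104 genes that rose at least 2-fold were on none of the functional lists used here and were not classed by function. Of the 104, 51 were below 10 scaled CPM even with MGT. The 5 lists of sarcomere, junction and calcium genes held 9 of them, and 26 belong to any functional list. With MGT, 60 of the 104 stood above both fresh fibroblasts and fresh cardiomyocytes. Nid2, a basement membrane protein named here after its values were seen because it combined a 2-fold change with a high level, went from 2411 and 2796 to 5132 and 5403 scaled CPM (1.02 ± 0.05, adjusted p = 2.25e-12). Its fresh means were 420.2 in fibroblasts and 393 in cardiomyocytes.

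The 15 largest decreases came from another set of genes. Smpd3, the neutral sphingomyelinase that makes ceramide, fell from 9.99 and 12.03 to 3.35 and 3.59 (-1.53 ± 0.09, adjusted p = 1.81e-11). Lrrn4, a leucine-rich membrane protein of mesothelium, fell from 20.4 and 22.3 to 9.16 and 9.32 (-1.17), and Tnfrsf11b, the decoy receptor osteoprotegerin, from 26.2 and 23.8 to 11.3 and 11.8 (-1.08). All 15 had both MGT libraries below both control libraries, by the rule that chose them.

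The metabolic enzymes among them were the cytochrome P450 Cyp1b1 (-1.04) and the dipeptidase Dpep1, a fibroblast membrane protein that went from 73.4 and 70.97 to 35.6 and 35.3 (-1.01). Chemokine genes were Ccl12 (-0.96), the fractalkine gene Cx3cl1 (-0.85) and its receptor Cx3cr1 (-0.92). Ptx3, a soluble pattern-recognition protein induced by cytokines, fell from 11.8 and 12.1 to 6.30 and 6.25 (-0.88). The pseudokinase Trib3, induced in the integrated stress response, fell by 0.90, and the ribosomal protein paralog Rpl22l1 fell by 0.87 on the same scale. Kif26b (-1.02), Pkhd1l1 (-0.99), Ctla2a (-0.95) and Lgi2 (-0.85) complete the 15. Ccl12 is a close relative of Ccl2, and how the counting split reads between close copies is not given in the sources used here.

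More muscle genes rose than fell. Of 106 genes on the 5 lists of thick filament, thin filament, titin with Z-disc and M-band, intercalated disc, and sarcoplasmic reticulum, 89 could be tested, and 60 of these rose (67.4%, against 19.7% of all genes) while 4 fell (4.49%, against 19.5%) and 25 did not pass. Their median log2 fold change was 0.40, beside -0.01 for all genes. The other 17 were below the level needed for a test, 8 of them genes that exceed 10 scaled CPM in fresh cardiomyocytes. The 60 include genes such as Mybph and Myl1 that were kept for testing only with the help of the MGT libraries. These lists were chosen with earlier results of these data known.

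Among thick filament genes 10 of 15 rose and 1 fell, with a median of 0.41. Both atrial myosin light chains rose: Myl4, the essential light chain of atrium and embryonic ventricle, went from 885 and 913 to 1603 and 1582 (0.83 ± 0.04, adjusted p = 2.50e-12), and Myl7, the atrial regulatory light chain, from 232 and 247 to 428 and 413 (0.81 ± 0.05). Both MGT libraries lay clearly above both controls for each gene. Myl2, the ventricular regulatory chain, read 4.21 and 5.02 in control and 5.72 and 4.75 with MGT and did not pass (adjusted p = 0.0843), and Myl3, the ventricular essential chain, read 2.002 and 2.04 in control and 1.77 and 1.42 with MGT and fell by 0.27 (adjusted p = 0.0179). With no filter on low values, and in a fit of the 4 libraries alone, Myl3 was not called. With 1 library left out, Myl3 no longer passed without control replicate 2 or MGT replicate 2 (largest adjusted p = 0.263) and Myl2 passed without control replicate 2 or MGT replicate 2 (smallest adjusted p = 0.00902).

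Myosin heavy chains differed in whether they passed. Myh6, the main heavy chain of the mouse heart after birth, went from 47.5 and 50.7 to 66.1 and 65.05 scaled CPM (0.41 ± 0.04, adjusted p = 4.11e-08), where fresh cardiomyocytes averaged 5548. Myh1, a fast skeletal heavy chain, rose from 63.8 and 63.8 to 85.4 and 99.5 (0.53) and averaged 0.203 in fresh cardiomyocytes. The skeletal heavy chain genes are near-identical neighbours, so the split of reads between Myh1 and its cluster is uncertain. Mybph, a relative of myosin-binding protein C, had the largest change on the list at 1.66, from a mean of 0.708 to 3.31, and Myl1 rose by 0.55 from a mean of 0.713. At these control levels both were kept for testing only with the help of the MGT libraries and could hardly be called lower. Mybpc3, the cardiac myosin-binding protein C, did not pass at 35.2 and 41.5 in control and 40.1 and 38.7 with MGT, with overlapping groups, and neither did the developmental heavy chain Myh8 (0.17). With a higher filter of 5 CPM, 6 thick filament genes were called higher, since fewer could be tested. On removal of a single library, Mybpc3 passed without control replicate 2 (adjusted p = 0.0142).

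Among thin filament genes 9 of 15 rose and none fell by limma (none at an unadjusted p below 0.05 and none by edgeR), with a median of 0.28. Tnni3, the cardiac inhibitory troponin, read 8.83 and 7.72 in control and 19.03 and 22.04 with MGT. Actc1, cardiac alpha-actin, read 94.7 and 104 in control and 227 and 233 with MGT. Lmod2, which nucleates and lengthens actin filaments, read 8.53 and 8.22 in control and 16.98 and 17.7 with MGT, with no overlap in any of the 3. Their log2 fold changes were 1.26 ± 0.07, 1.21 ± 0.05 and 1.01 ± 0.07. Tnnc1, the calcium-binding troponin of heart and slow muscle, went from 12.3 and 11.4 to 18.8 and 21.1 (0.73). Tnnt2, cardiac troponin T, started high at 2436 and 2198 in control and reached 3076 and 3262 (0.45 ± 0.06, adjusted p = 1.60e-06), above its mean of 2010.0 in fresh cardiomyocytes. Tnni1, the slow and fetal inhibitory troponin, did not pass (5.25 and 5.15 in control and 5.15 and 6.11 with MGT), nor did the tropomyosin Tpm2 (646 and 595 in control and 633 and 685 with MGT, 0.09). When single libraries were dropped, Tpm2 passed without control replicate 1 or MGT replicate 1 (smallest adjusted p = 0.0158).

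Titin and the Z-disc and M-band genes had 17 of 25 higher and 2 lower, with a median of 0.47. Ttn, the spring that spans from Z-disc to M-band, read 74.8 and 104 in control and 251 and 269.8 with MGT (1.56 ± 0.09, adjusted p = 2.84e-11). Myom2, which crosslinks thick filaments at the M-band, went from 137 and 142 to 343 and 343, and Synpo2l, a Z-disc actin-binding protein, from 48.9 and 58.1 to 117 and 125. In all 3 the MGT libraries were more than double the control mean. Des, the muscle intermediate filament, went from 451 and 471 to 839 and 857 (0.88 ± 0.04), and Smyd1, the methyltransferase needed for sarcomere assembly, from 1.68 and 1.94 to 3.59 and 3.61 (0.83). Actn2, the Z-disc alpha-actinin of muscle, rose from 5.60 and 5.74 to 9.79 and 9.97 (0.75).

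Fhl2, a LIM-domain cofactor, went the other way, from 775 and 772 to 591 and 598 (-0.38 ± 0.04, adjusted p = 2.76e-08), and Ankrd23 fell by 0.24. The stretch-responsive gene Ankrd1, named after its values were seen because of its level, rose from 1319.8 and 1308 to 1609 and 1740.0 (0.35). The Z-disc PDZ-LIM proteins Pdlim5 (-0.04) and Pdlim3 (0.02) did not pass, nor did Csrp3 (0.12). Omitting 1 library changed these calls: Ankrd23 no longer passed without control replicate 1, MGT replicate 1 or MGT replicate 2 (largest adjusted p = 0.0766) and Pdlim5 passed without control replicate 1 (adjusted p = 0.0464).

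Intercalated disc and junction genes had 10 of 15 higher and 1 lower, with a median of 0.34. Dsp, the desmosomal protein that anchors intermediate filaments, read 128 and 127 in control and 303 and 320.2 with MGT (1.28 ± 0.04, adjusted p = 1.80e-15), above its mean of 278 in fresh cardiomyocytes. Gja1, the connexin of working myocardium, went from 86.04 and 78.2 to 141 and 142 (0.78 ± 0.04). The groups were well apart for both. Ctnna3, the alpha-catenin of heart and testis, rose by 0.999, the Popeye-domain gene Popdc3 by 0.92 and the desmocollin Dsc2 by 0.48, all 3 from low levels. Cxadr, the junctional adenovirus receptor, fell from 14.5 and 13.9 to 8.92 and 7.90 (-0.72 ± 0.08). The conduction-system connexins Gjc1 (-0.09) and Gja5 (-0.10) and the desmosomal plakophilin Pkp2 (-0.04) did not pass. Leaving out control replicate 2 made 2 genes lower in place of 1. In fits short of 1 library, Dsc2 no longer passed without control replicate 1 or MGT replicate 1 (largest adjusted p = 0.13) and Gjc1 passed without control replicate 2 (adjusted p = 0.0304).

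Calcium-handling genes of the sarcoplasmic reticulum had the highest share of increases of these lists, 14 of 19, with none lower by limma (1 at an unadjusted p below 0.05 and none by edgeR) and a median of 0.57. Casq2, the calcium-storage protein of the cardiac reticulum, read 123 and 127 in control and 231 and 239.7 with MGT, and Trdn, which tethers it to the release channel, 9.23 and 7.87 in control and 16.5 and 17.2 with MGT. Neither pair overlapped, and the log2 fold changes were 0.91 ± 0.05 and 0.94 ± 0.07. Ryr2, the release channel, went from 109 and 122 to 186 and 182 (0.67 ± 0.05, adjusted p = 4.99e-10). The calcium pump Atp2a2, named after its values were seen, went from 702 and 733 to 1100.0 and 1088 (0.61).

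Sln, the atrial pump inhibitor sarcolipin, rose from 4.17 and 3.65 to 10.2 and 9.19 (1.21), and Pln, the pump inhibitor phospholamban, from 1.58 and 1.42 to 2.68 and 2.29 (0.57), where fresh cardiomyocytes averaged 17.8 and 722. Srl (0.84) and Hrc (0.83), calcium-binding proteins of the reticulum, rose as well. The junctional protein Jph2 (289.7 and 338 in control and 325 and 336 with MGT, 0.08), the receptor channel Itpr1 (0.08) and Asph (-0.02) did not pass. Dropping 1 of the 4 libraries mattered as follows: Jph2 and Itpr1 passed without control replicate 2 (adjusted p = 6.38e-04 and 0.0432).

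**Figure D3:**
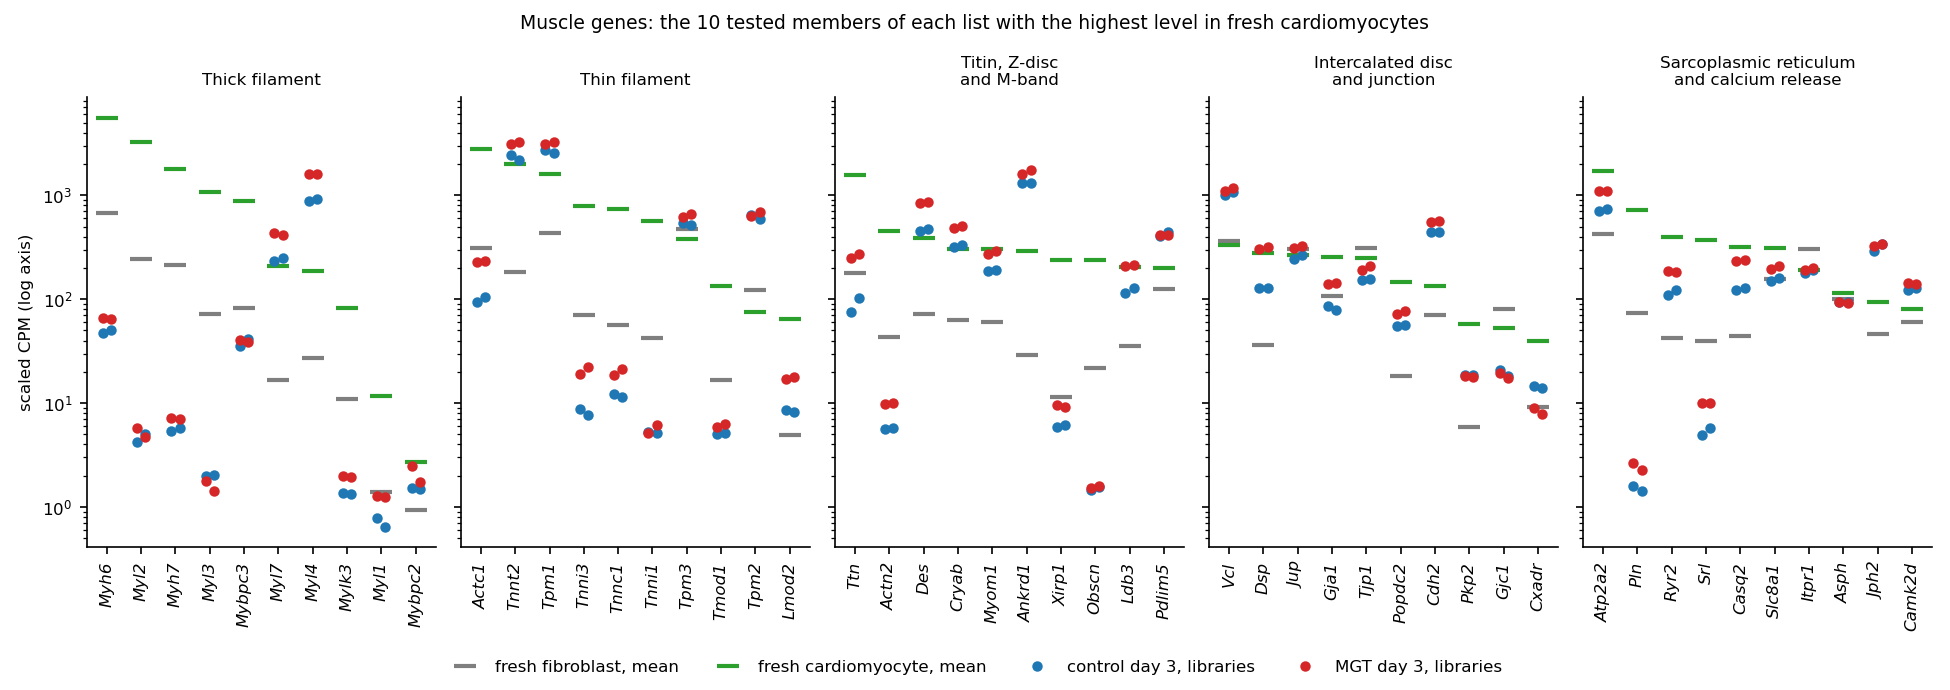
Scaled CPM on a log axis of the 10 tested members of each of 5 muscle lists with the highest fresh cardiomyocyte mean, for the 2 control and 2 MGT libraries at day 3 (points) and the means of fresh fibroblasts and fresh cardiomyocytes (bars). MGT lies above control for most genes, from Ttn at 251 and 269.8 against 74.8 and 104 to Casq2 at 231 and 239.7 against 123 and 127, while Myh6, Myl2, Myl3, Myh7, Tnni3, Pln and Actn2 stay far under the fresh cardiomyocyte bar.

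Set against fresh cardiomyocytes, the 89 muscle genes tested ranged from under 1% of that level to above it. With MGT, 34 stood at or above 100% of the fresh cardiomyocyte mean, 32 between 10% and 100%, 18 between 1% and 10% and 5 under 1%, with a median of 61.1%. In control the counts were 26, 37, 19 and 7, with a median of 42.3%. Myl4 reached 849.9% of the fresh cardiomyocyte mean with MGT (479.6% in control), Dsp 112% (45.98%) and Ttn 16.7% (5.70%). Tnni3 reached 2.63% (1.06%), Myh6 1.18% (0.885%) and Myl2 0.161% (0.142%). Fresh fibroblasts also held cardiomyocyte transcripts, with Myh6 at 669.5 scaled CPM on average, and 56 of the 89 genes were above the fresh fibroblast mean with MGT, against 51 in control. The fresh cardiomyocyte libraries in turn held transcripts of other cell types, with Col1a1 at 3488 and Cdh5 at 1081 scaled CPM on average. A percent of their mean therefore need not be a percent of the level in cardiomyocytes alone. These positions are a description, with no test.

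Of the 12 cardiomyocyte markers 9 were higher and 1 lower, with a median of 0.62. All of them except Nppa and Mb are members of the 5 muscle lists already counted, so these counts are not independent of those. Their summed level was 2942 and 2765 scaled CPM in control and 4079 and 4267 with MGT. Tnnt2 made up most of both sums. Nppa, the atrial natriuretic peptide gene, did not pass (14.6 and 15.6 in control, 12.7 and 14.2 with MGT). After omission of 1 library, Nppa passed without control replicate 1 or MGT replicate 2 (smallest adjusted p = 0.0198).

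Promoters of muscle genes that rose are shown because they carry letters of the kind that MEF2, the first of the delivered factors, is known to bind. RefSeq promoters on GRCm38.p6, 250 bases before to 50 after the annotated start, matched 9446 of the 12673 genes. Each was searched on both strands for the MEF2 core motif, for the GATA-type motif GATAAG, for the T-box motif AGGTGT and for the CArG box of the factor SRF. The MEF2 motif and the CArG box never shared a match here, whereas a MEF2 match can share letters with AGGTGT. Below are the 5 promoters of genes from the muscle lists or named increases that rose and hold a MEF2 match, each 5′ to 3′ on the strand of its gene with the MEF2 match in capitals.
Ttn: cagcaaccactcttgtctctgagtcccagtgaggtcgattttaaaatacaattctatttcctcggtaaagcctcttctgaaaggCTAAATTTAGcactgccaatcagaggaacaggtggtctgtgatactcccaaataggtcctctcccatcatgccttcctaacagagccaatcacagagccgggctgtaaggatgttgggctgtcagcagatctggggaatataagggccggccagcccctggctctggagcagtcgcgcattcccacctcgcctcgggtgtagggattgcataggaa
Synpo2l: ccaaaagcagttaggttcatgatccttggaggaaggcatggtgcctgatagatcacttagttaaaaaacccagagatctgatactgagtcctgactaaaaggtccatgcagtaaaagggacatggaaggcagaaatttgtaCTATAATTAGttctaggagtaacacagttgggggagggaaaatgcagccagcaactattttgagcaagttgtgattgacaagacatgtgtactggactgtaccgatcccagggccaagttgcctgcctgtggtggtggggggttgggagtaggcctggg
Esrrg: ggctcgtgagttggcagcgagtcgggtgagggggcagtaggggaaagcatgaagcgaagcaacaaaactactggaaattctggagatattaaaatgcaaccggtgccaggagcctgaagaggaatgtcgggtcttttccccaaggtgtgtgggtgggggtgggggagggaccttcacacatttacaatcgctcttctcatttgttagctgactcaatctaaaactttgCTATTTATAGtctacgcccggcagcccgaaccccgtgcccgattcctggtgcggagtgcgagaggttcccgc
Myoz2: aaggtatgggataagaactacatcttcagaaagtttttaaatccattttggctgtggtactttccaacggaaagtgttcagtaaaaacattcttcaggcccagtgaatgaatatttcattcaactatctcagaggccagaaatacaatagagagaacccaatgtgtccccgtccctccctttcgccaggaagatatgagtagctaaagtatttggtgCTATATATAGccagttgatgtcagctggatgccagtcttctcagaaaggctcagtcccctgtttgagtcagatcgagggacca
Ckb: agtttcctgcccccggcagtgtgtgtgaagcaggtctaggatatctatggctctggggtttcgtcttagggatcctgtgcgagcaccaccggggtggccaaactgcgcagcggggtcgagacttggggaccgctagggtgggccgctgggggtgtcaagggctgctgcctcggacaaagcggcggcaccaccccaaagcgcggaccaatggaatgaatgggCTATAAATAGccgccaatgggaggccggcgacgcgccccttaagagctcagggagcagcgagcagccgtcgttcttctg

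In Ttn (chr2:76982498-76982797, minus strand) the match begins 166 bases before the start, in Synpo2l (chr14:20668305-20668604, minus) 109 before, in Esrrg (chr1:187608756-187609055, plus) 22 before, in Myoz2 (chr3:123034938-123035237, minus) 33 before and in Ckb (chr12:111672289-111672588, minus) 29 before. In Esrrg and Ckb the capitals hold the letters TATAAA on one strand or the other, which is also the TATA box of core promoters. Only this spelling was looked for. The capitals of Myoz2 hold the similar letters TATATA, so that match is not shown to be free of the same ambiguity. Myoz2, a calcineurin-binding Z-disc protein, went from 5.14 and 5.32 to 7.16 and 7.70 scaled CPM (0.47 ± 0.07). Esrrg, the estrogen-related receptor that drives oxidative genes, rose by 1.10 from a mean of 0.772. At that control level it was kept for testing only with the help of the MGT libraries. Ckb, the brain-type creatine kinase, rose from 191 and 203 to 219.8 and 234 (0.20).

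The MEF2 motif was rare. It was in 52 of 9446 promoters of tested genes (0.55%), in 4 of the 71 promoters of genes that rose at least 2-fold (5.63%), namely those of Ttn, Synpo2l, Esrrg and the lens connexin Gja3, and in none of 12 of genes that fell that much. Among all genes that rose it was in 14 of 1869 (0.749%), and among all that fell in 11 of 1846 (0.596%). In the 74 muscle promoters of 6 lists, which add the energy genes to the 5 above, 7 held it (9.46%), 5 of genes that rose and 2 of genes that did not pass, Xirp2 and Mybpc3.

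The other motifs were counted the same way. GATAAG was in 6.27% of promoters of tested genes, in 14.1% of those of genes that rose 2-fold and in 18.9% of the muscle promoters. AGGTGT was in 12.7%, 14.1% and 14.9%, and the CArG box in 1.6%, 2.82% and 10.8%. Over all 32851 promoters of the table the shares were 0.557% for MEF2, 7.44% for GATAAG, 13.7% for AGGTGT and 1.63% for the CArG box. These matches are a description of the letters and were set against no test.

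Ion channel genes had 8 of 16 higher and 2 lower (median 0.25). Kcnc4, a fast-inactivating potassium channel, went from 7.38 and 8.85 to 29.3 and 30.4 (1.82 ± 0.08, adjusted p = 2.76e-13). Abcc9, the sulfonylurea receptor (0.82), the atrial potassium channel Kcna5 (0.81) and the inward rectifier Kcnj2 (0.42) rose from low control means of 1.80 to 3.56 scaled CPM. The calcium channel Cacna1d fell (-0.27), and Kcnj5 (0.09) and Kcnh2 (-0.12) did not pass. At a filter of 5 CPM, 5 channel genes were higher, and without MGT replicate 2, 1 was lower. The natriuretic and secreted cardiac genes were mixed, 3 higher and 4 lower of 11. Corin went from 4.50 and 4.61 to 16.01 and 14.2 (1.62 ± 0.07), and the natriuretic receptor Npr2 rose by 0.35, while the clearance receptor Npr3 (-0.79), neuregulin Nrg1 (-0.68), endothelin Edn1 (-0.51) and adrenomedullin Adm (-0.25) fell. Leaving out 1 library at a time, Kcnj2 no longer passed without MGT replicate 1 (adjusted p = 0.0677) and Cacna1d no longer passed without MGT replicate 2 (adjusted p = 0.0504). With 1 library left out, Kcnj5 passed without control replicate 2 (adjusted p = 0.0269) and Kcnh2 passed without control replicate 1 (adjusted p = 0.0307).

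Genes of muscle energy supply rose in 9 of 14 cases and fell in 2 (median 0.42). Mb read 6.65 and 5.89 in control and 19.9 and 20.1 with MGT (1.60 ± 0.06, adjusted p = 1.63e-14), against 986 in fresh cardiomyocytes. The muscle glycogen phosphorylase Pygm (0.83), the fatty acid carrier Fabp3 (0.57) and the coactivator Ppargc1b (0.52) rose as well. Cox6a2 (-0.22) and Esrra (-0.15) fell, and without MGT replicate 1, MGT replicate 2 or control replicate 2 none of the 14 was lower. Fatty acid oxidation was divided, 8 higher and 6 lower of 22 (median 0.06), with Acaa2, the last enzyme of the mitochondrial cycle, from 55.03 and 53.1 to 101 and 98.7 (0.88) and Pdk4, which spares glucose, at 0.81, beside Echs1 at -0.28. Of 30 respiratory chain genes 3 were higher (5 without control replicate 1) and 11 lower, with a median of -0.04. The largest of these were Ndufa1 at 0.37 and Cyc1 at -0.27. Of 15 glycolysis genes 4 were higher, led by Ldhb, the lactate dehydrogenase of heart, at 0.44, and 6 lower, led by the lactate exporter Slc16a3 at -0.56 and Pgk1 at -0.34. On removal of a single library, Cox6a2 and Esrra no longer passed without control replicate 2, MGT replicate 1 or MGT replicate 2 (largest adjusted p = 0.251 and 0.434).

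Cardiac transcription regulators other than those delivered had 10 of 26 higher and 1 lower, with 15 that did not pass and a median of 0.12. Without MGT replicate 2 the count was 6. Hopx, a homeodomain-only cofactor of the cardiac lineage, went from 1.83 and 1.53 to 4.23 and 3.82 scaled CPM (1.06 ± 0.09, adjusted p = 7.61e-09), against 97.6 in fresh cardiomyocytes. Zfpm1, a GATA-binding cofactor, went from 40.1 and 42.6 to 61.9 and 60.1 (0.56 ± 0.05), and Myocd, the SRF coactivator myocardin, from 8.06 and 9.34 to 12.99 and 12.8 (0.55). Each had its MGT libraries above its controls.

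Tbx2 (0.39) and Mkl2 (0.36) rose, and Heyl, a Notch target, fell (-0.45). Tbx20 (414 and 457 in control and 440.3 and 448 with MGT), Mef2a (0.02) and Srf (0.11, adjusted p = 0.0552) did not pass. Of the 36 regulators listed, 10 were too low to test, Nkx2-5, Hand1, Isl1 and Irx4 among them. Of 16 skeletal muscle regulators 12 were too low, including Myod1 and Myog, and 1 of the 4 tested fell, Eya4 at -0.34. When single libraries were dropped, Srf passed without control replicate 2 or MGT replicate 1 (smallest adjusted p = 0.00786).

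Muscle splicing regulators had 7 of 16 higher and 1 lower (median 0.12). Rbm20, the regulator of titin splicing, went from 12.2 and 14.6 to 22.7 and 23.3 (0.76 ± 0.07, adjusted p = 3.58e-08), and Rbm24, needed for sarcomere assembly, from 1.20 and 1.25 to 2.59 and 2.63 (0.85). Celf2 (0.40), Rbpms2 (0.37) and Rbm38 (0.33) also rose, Rbfox1 fell by 0.53, and Mbnl2 (0.06) and Rbfox2 (0.09) did not pass beside Ptbp1. Omitting 1 library changed these calls: Rbfox2 passed without control replicate 2 (adjusted p = 0.0196).

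More fibroblast matrix genes fell than rose. Of 25 collagens 13 were lower and 6 higher, with a median of -0.24. The fibrillar collagen Col11a1 went from 504 and 536 to 307 and 321 (-0.72 ± 0.04, adjusted p = 4.84e-11), and Col7a1, of anchoring fibrils, from 41.99 and 46.4 to 27.6 and 24.8 (-0.74). Col16a1 fell by 0.61, Col5a2 from 7809.9 and 8053 to 5657 and 5615 (-0.49) and Col3a1 from 2855 and 2825 to 2073 and 2017 (-0.47). The chains of type I collagen, read here as fibroblast markers, went from 8261 and 9878 to 7178 and 7037 for Col1a1 (-0.35 ± 0.07) and from 6158 and 6751 to 4745 and 4645 for Col1a2 (-0.46 ± 0.06). In each the MGT libraries lay below both controls.

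After Col10a1 the collagens with the largest increases were Col4a3 (0.59) and Col4a4 (0.32) of specialised basement membranes, Col12a1 from 655 and 743 to 991 and 1048 (0.55) and Col6a3 (0.27). The common basement membrane chains Col4a1 (-0.15) and Col4a2 (-0.03) did not pass. In fits short of 1 library, Col4a1 passed without control replicate 1 (adjusted p = 0.00285).

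Elastic fibre and crosslinking genes had 16 of 21 lower and 3 higher with a median of -0.24. Eln, elastin, read 1898 and 1942 in control and 1143 and 1186 with MGT (-0.72 ± 0.04, adjusted p = 1.52e-11), and Mfap4, a microfibril protein, 216 and 181 in control and 107 and 114 with MGT (-0.84 ± 0.05). For both genes the 2 MGT libraries lay below the 2 controls. The fibrillin Fbn2 (-0.57), the fibulin Fbln2 (-0.55) and the crosslinking oxidase Loxl1 (-0.53) fell too. Efemp1 rose, as given above, with the latent TGF-beta binding protein Ltbp1 (0.52) and Mfap5 (0.36).

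Matricellular proteins and proteoglycans had 14 of 29 lower and 6 higher (median -0.06). Wisp2, a CCN protein, went from 484 and 504 to 319 and 304 (-0.67 ± 0.05), the calcium-binding Smoc1 from 2.998 and 3.29 to 0.948 and 1.11 (-1.25), and the small proteoglycan Lum fell by 0.43. Thbs3 (-0.39) and Thbs2 (-0.31), thrombospondins, fell as well. Abi3bp led the increases, followed by the tenascins Tnxb (0.57) and Tnc (0.24) and by Podn (0.28). Fibronectin Fn1 (20986 and 22802 in control and 20869 and 22261 with MGT), Sparc (0.04) and Bgn (-0.05) did not pass.

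Matrix proteases and their inhibitors had 12 of 23 lower and 6 higher. Mmp15 went from 16.1 and 17.8 to 50.3 and 51.99 (1.57 ± 0.05, adjusted p = 6.28e-16) and the macrophage elastase Mmp12 from 301 and 279 to 540.0 and 524 (0.87 ± 0.04). Mmp13 rose by 0.64. Decreases were led by Mmp23 (-0.42), the plasminogen activator Plat (-0.39), Mmp3 (-0.34) and Mmp16 (-0.34). Mmp14 (-0.02) and Timp1 (-0.0014) did not pass. Dropping 1 of the 4 libraries mattered as follows: Mmp3 no longer passed without control replicate 1, control replicate 2 or MGT replicate 2 (largest adjusted p = 0.195).

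**Figure D4:**
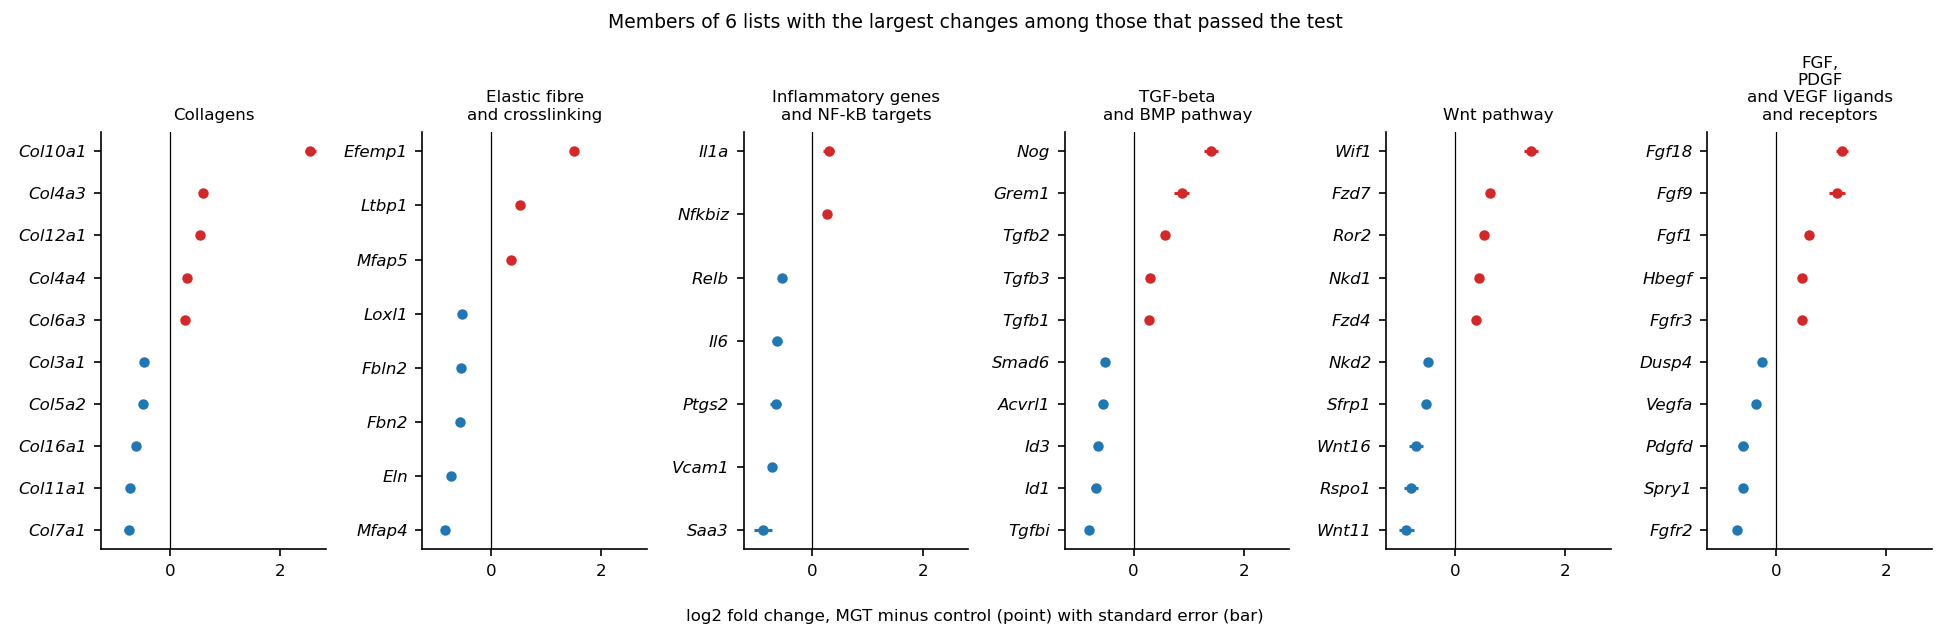
Log2 fold change of MGT minus control with its standard error for the up to 5 members that rose most (red) and the up to 5 that fell most (blue) of 6 lists. Collagens run from Col10a1 at 2.54 to Col7a1 at -0.74, and each list except the inflammatory one has members beyond 0.5 on the rising side.

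Fibroblast identity genes did not move one way: 7 of 19 were lower and 3 higher (median -0.05). Thy1, the antigen used to purify the cells, rose from 301 and 314 to 453 and 510.3 (0.64 ± 0.06, adjusted p = 1.35e-08), and the intermediate filament Vim from 3271 and 3298 to 4269 and 4411 (0.40). Tcf4 rose by 0.32. Tcf21, the transcription factor of the cardiac fibroblast lineage, fell from 159.6 and 159 to 122 and 133 (-0.32 ± 0.04), the receptor Pdgfrb from 498 and 515 to 373 and 378 (-0.43), and Meox1, a switch of fibroblast activation, from 5.86 and 4.68 to 2.69 and 3.68 (-0.65). Dpep1 fell, as given above, and Snai1 by 0.23. S100a4 (0.04), Prrx1 (0.04) and Pdpn (-0.11) did not pass. Of the 8 fibroblast markers 6 were lower, among them Postn from 2371 and 2354 to 1879 and 1939 (-0.31), Pdgfra (-0.16) and Ddr2 (-0.14), and Thy1 was the 1 that was higher. With MGT and shNT, Postn averaged 3115 and Tcf21 175, above their control means of 2363 and 159. The others of the 6 did not exceed their control means there. After omission of 1 library, Snai1 no longer passed without control replicate 1 or MGT replicate 1 (largest adjusted p = 0.164) and Pdpn passed without control replicate 2 (adjusted p = 0.00406).

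Smooth muscle contractile and SRF target genes were even, 7 of 20 higher and 7 lower (median 0.03). The actin-binding Ablim1 rose by 0.52 beside Des, and Acta2, the actin of myofibroblasts, from 5409.8 and 5645 to 5897 and 6421 (0.16 ± 0.05, adjusted p = 0.0174). Cnn1 fell from 56.3 and 53.4 to 37.97 and 38.6 (-0.51 ± 0.07), and Tagln from 2045 and 2031 to 1655 and 1708 (-0.28). Tagln2 (-0.35), Smtn (-0.28) and Actg2 (-0.26) fell too. The number higher rested on single libraries, with 2 without MGT replicate 2 and 4 without control replicate 1, and it was 3 in a fit of the 4 libraries alone and 3 with no filter on low values. Leaving out 1 library at a time, Acta2 no longer passed without control replicate 1 or MGT replicate 2 (largest adjusted p = 0.251).

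Inflammatory genes fell in 13 of 19 cases and rose in 2, with a median of -0.31. Vcam1, an adhesion molecule for leukocytes, read 163 and 162 in control and 101 and 95.1 with MGT (-0.73 ± 0.04, adjusted p = 1.02e-11). Il6, the acute-phase cytokine, read 9.71 and 8.14 in control and 5.62 and 5.38 with MGT. Ptgs2, the inducible cyclooxygenase, read 6.85 and 7.36 in control and 4.51 and 4.08 with MGT. The serum amyloid Saa3 read 5.31 and 4.85 in control and 2.51 and 2.50 with MGT. For each of these 4 genes both MGT libraries were lower than both controls, where 68.6% of all genes tested had no overlap in one direction or the other. The NF-kB subunit Relb fell by 0.56. Il1a (0.30) and Nfkbiz (0.27) were the genes that rose, and Tnfaip2 (0.09) and Lif (-0.06) did not pass. With 1 library left out, Il1a no longer passed without control replicate 2, MGT replicate 1 or MGT replicate 2 (largest adjusted p = 0.393).

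Chemokines and their receptors fell in 10 of 16 cases, with a median of -0.34. Ccl12 read 13.8 and 12.1 in control and 6.64 and 6.15 with MGT. The chemokine Cx3cl1 read 12.6 and 14.6 in control and 7.09 and 7.52 with MGT. Its receptor Cx3cr1, found on macrophages, read 18.3 and 22.8 in control and 10.97 and 10.2 with MGT. Their log2 fold changes were -0.96 ± 0.15, -0.85 ± 0.09 and -0.92 ± 0.11. Ccl7 went from 79.1 and 76.3 to 56.2 and 56.1 (-0.47), and Ccl20 fell by 0.64. Cxcr4 was the 1 member called higher, at 0.17, and Ccl9 (0.12) and Ccr1 (-0.15) did not pass. The macrophage markers beside these genes were split: Cd68 rose from 395 and 367 to 511 and 539 (0.46) and Fcer1g by 0.18, while 7 of 14 fell, including Cd14 (-0.51), Fcgr1 (-0.32) and Csf1r (-0.21), with a median of -0.11. Their part in the inflammatory and chemokine results was not tested. On removal of a single library, Ccl20 no longer passed without control replicate 1 or MGT replicate 2 (largest adjusted p = 0.135) and Cxcr4 and Fcgr1 no longer passed without control replicate 1, control replicate 2, MGT replicate 1 or MGT replicate 2 (largest adjusted p = 0.1 and 0.136). When single libraries were dropped, Ccl9 passed without control replicate 1 (adjusted p = 0.0359).

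Most interferon response genes did not pass, with 1 of 29 higher, 7 lower and a median of -0.09. In a fit of the 4 libraries alone 12 were lower. Bst2, the tethering factor for enveloped viruses, went from 169 and 174 to 114 and 103 (-0.66 ± 0.05, adjusted p = 5.50e-10), and Isg15, an ubiquitin-like modifier, from 65.6 and 71.9 to 52.98 and 51.7 (-0.39). The proteasome subunits Psmb9 (-0.36) and Psmb8 (-0.32) and Irf1 (-0.31) fell. B2m, the light chain of class I molecules, rose from 1277 and 1123 to 1402 and 1484 (0.27). The transcription factor Stat2 (0.04) and the RNA sensor Ddx58 (0.02) did not pass. Omitting 1 library changed these calls: Psmb9 no longer passed without control replicate 1 or MGT replicate 2 (largest adjusted p = 0.19).

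Most endothelial and mesothelial markers tested fell. Of 13 endothelial markers tested 10 were lower and 1 higher, with a median of -0.55, and their sum went from 898 and 972 scaled CPM in control to 727 and 764 with MGT. The endothelial cadherin Cdh5 read 29.4 and 30.8 in control and 15.8 and 18.8 with MGT (-0.79 ± 0.06, adjusted p = 4.21e-10). The endothelial phosphatase Ptprb read 295 and 341 in control and 187 and 188 with MGT (-0.76). The receptor Tie1 read 8.12 and 8.73 in control and 4.25 and 4.95 with MGT, and the adhesion molecule Pecam1 13.8 and 14.6 in control and 9.97 and 9.79 with MGT. Fresh fibroblasts averaged 1019.8 for Cdh5, far above either culture. With MGT and shNT, the markers Pecam1, Emcn and Eng averaged 16.3, 22.6 and 461, above their control means of 14.2, 16.7 and 406. The others of the 10 that fell averaged below control there. Flt1 rose by 0.22, and Kdr (-0.13) and Vwf (-0.01) did not pass. In fits short of 1 library, Kdr passed without control replicate 1 or MGT replicate 2 (smallest adjusted p = 0.0315).

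Of 11 epicardial and mesothelial markers 7 were lower and 2 higher, with a median of -0.51 and sums of 395 and 394 in control and 353 and 359.6 with MGT. The keratins of mesothelium Krt8, from 8.24 and 7.99 to 3.01 and 3.25 (-1.25 ± 0.12), Krt18 (-0.82) and Krt7 (-0.67) fell with Lrrn4, Msln (-0.59) and Upk3b (-0.51), whereas Upk1b (0.46) and Tbx18 (0.13) rose and Wt1 (-0.05) did not pass. Of 7 smooth muscle markers 5 were lower and 1 higher, and of 6 pericyte markers 2 and 1, all named above except Notch3 (-0.18) and Lmod1 (-0.17). Of 8 lymphocyte markers only Cd4 could be tested (0.39), of 7 erythroid markers none, and of 7 Schwann and neural markers Tubb3 (-0.55) and Ncam1 (-0.18), which both fell. The part of these cell types in the changes of other genes was not tested. Dropping 1 of the 4 libraries mattered as follows: Tbx18 no longer passed without MGT replicate 2 (adjusted p = 0.128) and Notch3 no longer passed without control replicate 2, MGT replicate 1 or MGT replicate 2 (largest adjusted p = 0.413). After omission of 1 library, Lmod1 no longer passed without control replicate 1, control replicate 2 or MGT replicate 1 (largest adjusted p = 0.254) and Cd4 no longer passed without control replicate 1 or MGT replicate 2 (largest adjusted p = 0.127).

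TGF-beta and BMP genes moved in both directions, 12 of 34 higher and 14 lower with a median of -0.01. The ligands Tgfb2, from 170.2 and 181 to 250.3 and 274 (0.58 ± 0.04, adjusted p = 1.00e-09), Tgfb3 (0.29) and Tgfb1 (0.28) rose together. The secreted BMP antagonists Nog, from 1.89 and 2.25 to 6.43 and 6.11 (1.40 ± 0.13, adjusted p = 2.67e-08), and Grem1, from 1.24 and 1.37 to 2.83 and 2.78 (0.87), rose as well. The members that fell included the helix-loop-helix inhibitors Id1, from 11.4 and 14.3 to 7.75 and 7.69 (-0.69 ± 0.08), and Id3, from 78.9 and 81.5 to 51.5 and 50.4 (-0.65 ± 0.05). The inhibitory Smad6 (-0.53) and the matrix protein Tgfbi, from 37.4 and 36.7 to 21.2 and 20.4 (-0.82), fell too. The type I receptor Acvrl1 fell by 0.56, beside the endothelial markers above. Id2 (-0.05), Bmpr2 (0.15) and Smad3 (0.11) did not pass. Leaving out 1 library at a time, Bmpr2 and Smad3 passed without control replicate 2 (adjusted p = 0.00198 and 0.0258).

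The Wnt pathway was balanced too, 9 of 28 higher and 10 lower (6 lower at a filter of 5 CPM, where fewer were tested), with a median of -0.06. The secreted antagonist Wif1 went from 1.31 and 0.885 to 3.54 and 3.74 (1.39 ± 0.13), and the receptors Fzd7, from 65.1 and 70.9 to 103 and 108 (0.63 ± 0.05), Ror2 (0.52) and Fzd4 (0.38) rose with the feedback gene Nkd1 (0.44). The ligands Wnt11 (-0.88) and Wnt16 (-0.71), the agonist Rspo1 (-0.79), the antagonist Sfrp1 (-0.53) and Nkd2 (-0.49) fell. Wnt11 averaged 0.942 with MGT and was kept for testing only with the help of the control libraries. Ryk (0.06), Lrp5 (0.04) and Fzd2 (-0.10) did not pass. With 1 library left out, Fzd2 passed without control replicate 1 (adjusted p = 0.0304).

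None of 13 Notch genes rose by limma (none at an unadjusted p below 0.05 and none by edgeR) and 6 fell, with a median of -0.18; with the filter taken over all 12 libraries 2 were called higher. Notch4, an endothelial receptor, went from 3.88 and 4.83 to 1.80 and 2.53 (-0.87 ± 0.11), and Heyl, Lfng (-0.36), the ligand Jag1 (-0.25) and Notch1 (-0.19) fell as well. Rbpj (-0.07), Notch2 (-0.04) and Maml2 (0.07) did not pass. On removal of a single library, Notch1 no longer passed without control replicate 2 or MGT replicate 1 (largest adjusted p = 0.159).

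Among 25 FGF, PDGF and VEGF genes 7 were higher and 7 lower. Fgf18 and Fgf9, growth factors active in the developing heart, went from 3.54 and 2.96 to 7.25 and 8.99 (1.20 ± 0.11) and from 2.12 and 2.55 to 5.56 and 5.62 (1.11 ± 0.15), and Fgf1 (0.60), Hbegf (0.48) and Fgfr3 (0.47) rose. The receptor Fgfr2 from 37.2 and 40.01 to 23.8 and 22.9 (-0.71), the feedback inhibitor Spry1 (-0.60), Pdgfd (-0.59), Vegfa (-0.36) and Dusp4 (-0.26) fell. In the IGF axis 4 of 17 were higher and 5 lower. Igfbp5 went from 172 and 167 to 397 and 399 (1.23 ± 0.03, adjusted p = 1.43e-16), Stc2 rose by 0.48, and the binding-protein proteases Pappa2 (-1.19) and Pappa, from 120.4 and 134 to 89.5 and 89.3 (-0.51), fell with Igfbp2 (-0.37) and Igfbp4 (-0.37). When single libraries were dropped, Dusp4 no longer passed without control replicate 2 (adjusted p = 0.0678).

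Cell cycle genes that passed were mostly lower, by small amounts. Of 27 DNA replication genes 18 were lower and none higher by limma (none at an unadjusted p below 0.05 and none by edgeR), with a median of -0.18, and 10 were lower without MGT replicate 2. The largest changes were in Fen1, from 29.8 and 27.99 to 23.7 and 21.7 (-0.34 ± 0.06, adjusted p = 1.62e-04), Tk1 (-0.33), Tyms (-0.33), Prim1 (-0.28) and Cdt1 (-0.27). Of 25 mitosis genes 11 were lower and 1 higher (2 without MGT replicate 2), led by the checkpoint activator Cdc20 at -0.40, Bub1b at -0.29 and Ccnb1 at -0.27, while Kif23 rose by 0.26 and the proliferation marker Mki67 did not pass (243 and 247 in control and 236 and 248 with MGT). G1 cyclins and inhibitors held 3 of 20 higher (1 without MGT replicate 2 or control replicate 1) and 3 lower, and Cdk4 fell by 0.22. Cdkn1a, the p21 inhibitor, rose from 316 and 338 to 367 and 377 (0.19). Omitting 1 library changed these calls: Prim1 no longer passed without control replicate 1 or MGT replicate 2 (largest adjusted p = 0.0678) and Cdt1 no longer passed without control replicate 2 or MGT replicate 2 (largest adjusted p = 0.121).

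Cytosolic ribosomal protein genes had the highest share of decreases among the lists plotted, 25 of 30 lower and none higher by limma (none at an unadjusted p below 0.05 and none by edgeR), with a median of -0.25. Rps14 read 432 and 482 in control and 325 and 282 with MGT (-0.59 ± 0.05, adjusted p = 2.29e-08). Rpl9 read 401 and 434 in control and 318 and 294 with MGT (-0.45) and Rpl13 607 and 633 in control and 471 and 454 with MGT (-0.42). The groups did not overlap in any of the 3. Rpl8 fell by 0.40 and Rps12 by 0.38, and Rps2 (-0.07), Rps6 (-0.05) and Rpl19 (-0.09) did not pass. Ribosomal protein genes have many processed copies in the genome, so the share of reads each receives is uncertain. In fits short of 1 library, Rps6 and Rpl19 passed without control replicate 2 (adjusted p = 0.0104 and 0.0172).

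Stress genes had 12 of 24 lower and 2 higher (7 lower without MGT replicate 1, 4 higher without control replicate 1). Trib3 went from 81.2 and 82.7 to 46.1 and 41.4 (-0.90 ± 0.07, adjusted p = 4.28e-09), Ddit4 from 28.9 and 30.1 to 16.99 and 16.00 (-0.82 ± 0.06), and the amino acid response genes Slc7a11 (-0.48), Chac1 (-0.36) and Asns, from 193 and 183 to 147 and 149.6 (-0.34), fell with them. The muscle small heat shock proteins Hspb2 (0.55) and Hspb7, from 493 and 490.5 to 624 and 624 (0.34), were the ones that rose. Hsp90b1 (0.04), Hmox1 (-0.10) and Xbp1 (-0.03) did not pass. Cholesterol synthesis genes had 10 of 18 lower and 2 higher with a median of -0.15, with 6 lower without MGT replicate 2, none higher without MGT replicate 2 or control replicate 2, and 1 higher without MGT replicate 1. Decreases included Fdps (-0.29), Insig1 (-0.27), Lss (-0.27) and Mvk (-0.25), and Sc5d (0.21) and Sqle (0.16) rose. Dropping 1 of the 4 libraries mattered as follows: Chac1 no longer passed without MGT replicate 2 (adjusted p = 0.063) and Lss, Mvk and Sc5d no longer passed without control replicate 2 or MGT replicate 2 (largest adjusted p = 0.0779, 0.097 and 0.2). After omission of 1 library, Sqle no longer passed without control replicate 2, MGT replicate 1 or MGT replicate 2 (largest adjusted p = 0.136) and Hsp90b1 passed without control replicate 1 (adjusted p = 0.0267). Leaving out 1 library at a time, Hmox1 passed without MGT replicate 1 (adjusted p = 0.0249).

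**Figure D5:**
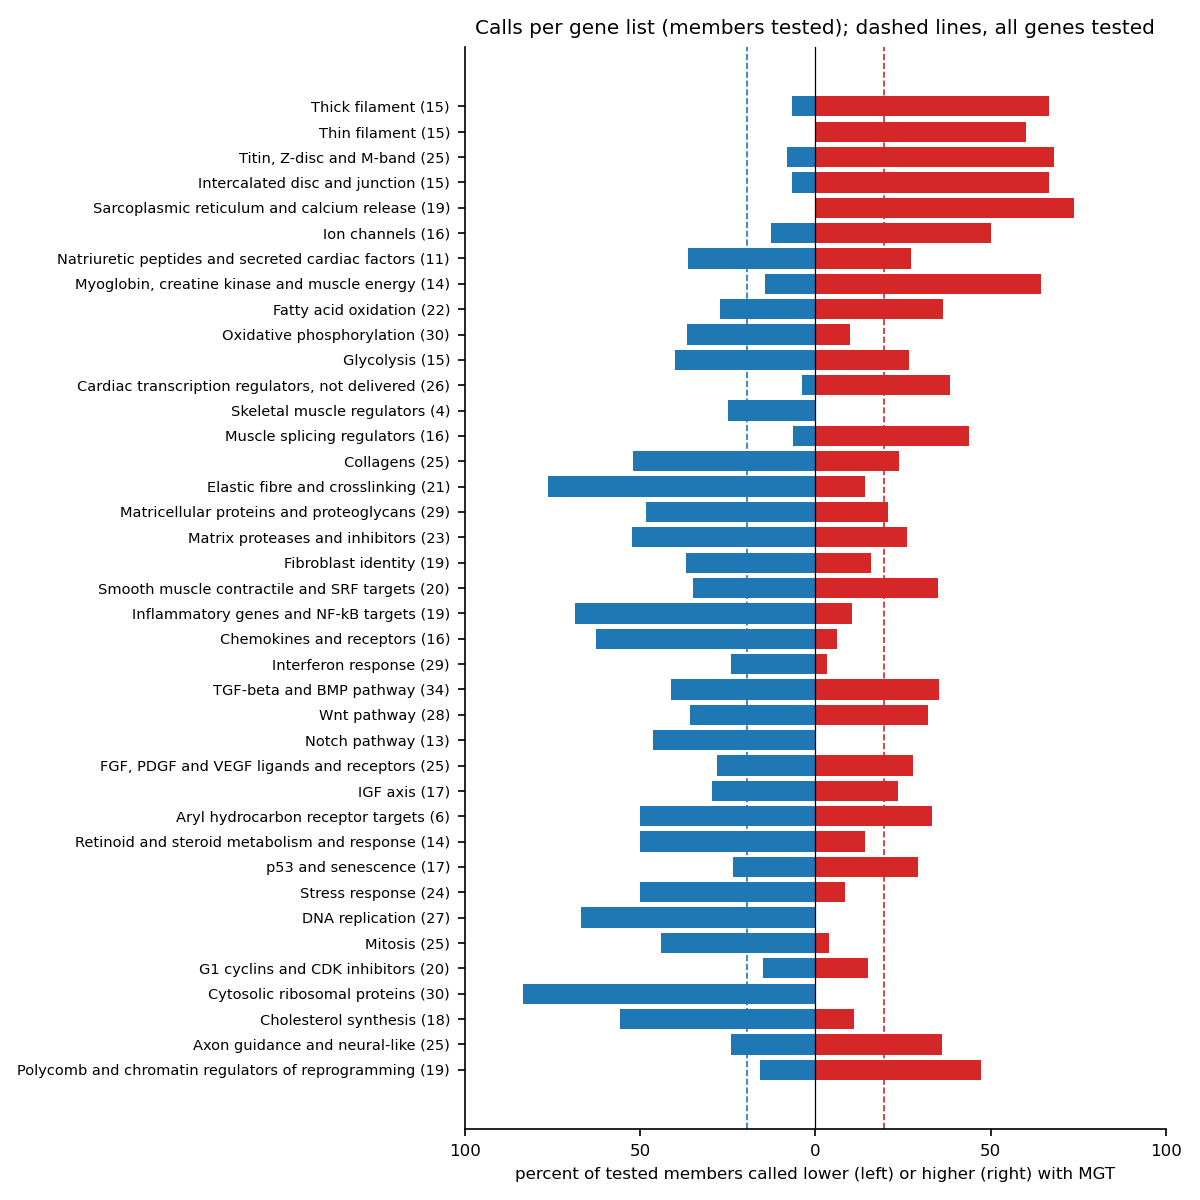
Percent of tested members that were lower (blue, left) or higher (red, right) with MGT by limma at an adjusted p below 0.05, for each functional list with its number of members tested; dashed lines mark the 19.5% lower and 19.7% higher among all 12673 genes. The 5 muscle lists at the top lie to the right, from 9 of 15 to 14 of 19 higher, and matrix, inflammatory, replication and ribosomal lists lie to the left, with 25 of 30 ribosomal genes lower.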

How the data were processed

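RNA from whole wells and from fresh cells was made into stranded poly(A) libraries. The authors deposited 1 table of CPM, counts per 1000000 reads assigned to genes, for 12 libraries. FastQC, TopHat2 2.1.0, HTSeq 0.6.1p1 and the mm10 build are named in the submitters' processing notes. Which annotation HTSeq used, and with which strand setting, is not given in the sources used here. Values of overlapping, antisense and closely related genes are therefore uncertain. Within 0.1 reads, 100% of the deposited CPM values were whole multiples of 1 read, which gave the read totals.

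Each library was scaled by median of ratios over the 12 libraries. The model on log2(scaled CPM + 0.5) used limma 3.58.1 (R 4.3.3), a mean for each group of 2, 6 residual degrees of freedom, trended empirical Bayes moderation, two-sided tests and Benjamini-Hochberg adjustment over 12673 genes. The smallest p of an exact permutation test with 2 libraries on each side is 0.333, so single values were not tested that way. edgeR 4.0.16 on the recovered reads was an alternative, as were other scalings, pseudocounts, filters, the 4 libraries alone, a replicate block and leaving out each library. Simulated data for this comparison held 12670 genes tested, with 50 genes changed by each of 0.25, 0.5, 1 and 2 log2 units. There limma recovered 54%, 92%, 100% and 100% of the changed genes, and 7.98% of its 188 calls were false. The data gave 4968 calls, most of them under 1.5-fold, so these shares need not hold for them.

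The genes and lists described were chosen with earlier results of these data known. Named genes are the delivered factors and Ptbp1, the 15 largest increases and 15 largest decreases among calls without overlap that reached 10 scaled CPM (predicted genes left out), per list up to 5 genes that rose, up to 5 that fell and up to 3 with the highest level that did not pass, and markers that passed. Some genes that this rule names are not reported here. The table holds 27 gene names that a spreadsheet turned into dates or numbers, 20 of them among the genes tested. Of the genes on the 40 functional and 10 marker lists, 956 were in the table and 822 were tested. Promoter sequences came from a RefSeq table and gene positions from a separate gene annotation, both of the GRCm38 assembly.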

Additional observations from a re-analysis of the deposited data

How the results depend on the processing

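Directions were stable for the named genes that passed in the main fit. Over 8073 combinations of named gene and setting, none of these genes reversed. A change of sign in a gene that did not pass was not counted. The call was lost in 156 combinations and gained in 98. The delivered factors with the 30 largest changes kept direction and call in 576 of 576. Those 30 were picked as the largest calls without overlap in the same libraries. Refits of these libraries could hardly lose or reverse them, so that count is no separate evidence of stability. Most other named genes that passed were also chosen by call or size of change, which made a reversal unlikely for them too. The counts of 2-fold changes moved with several settings. The 15 genes at least 2-fold lower became 38 with quantile scaling, 27 with a pseudocount of 0.1, 2 with a pseudocount of 2 and 32 with edgeR on recovered reads, and the 104 at least 2-fold higher became 52 with a pseudocount of 2; a pseudocount sets the fold of weakly expressed genes by construction. Leaving out 1 library at a time, 1709 to 2278 genes were higher and 1619 to 2246 lower, the 1619 without MGT replicate 2, and 103 to 107 and 15 to 20 changed at least 2-fold; a group left with 1 library is assumed to vary like the others. edgeR called 2533 higher and 2574 lower. Without scaling the calls were 2323 higher and 2705 lower (46.2% higher, against 50.3%). The replicate numbers are shared by the groups but pair nothing known: deviations of same-numbered libraries correlated at -0.05, and a replicate block gave 2468 higher and 2422 lower. With 86789976 or more reads per library in the comparison, 1 CPM rests on many reads, and the 2 libraries per group set the precision.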

Other observations

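A list of axon guidance and other neural genes had 9 of 25 higher and 6 lower by limma (5 higher without MGT replicate 2) and a median log2 fold change of -0.04. After Necab1, a neuronal calcium-binding protein (2.21), the secreted netrins Ntn4, from 35.98 and 38.1 to 55.4 and 53.7 scaled CPM (0.55 ± 0.05), and Ntn1, from 14.1 and 15.2 to 20.5 and 22.3 (0.53 ± 0.05), rose most, followed by Sema3a (0.39) and the guidance ligand Slit3, from 276 and 303 to 366 and 382 (0.37). Lrrn4 had the largest decrease on the list (-1.17), and Sema3f (-0.25) and the neurotrophin Bdnf (-0.20) also fell. Of 19 Polycomb and chromatin regulators 9 were higher and 3 lower (5 higher without MGT replicate 2, 1 lower without MGT replicate 1 or control replicate 2), all by small amounts. The H3K27 demethylase Kdm6b went from 76.9 and 84.3 to 95.3 and 101 (0.28), the BAF subunits Smarca4 (0.21) and Smarcd3 (0.17) rose, and Uhrf1, the partner of the maintenance DNA methyltransferase, fell (-0.28). With 1 library left out, Sema3a no longer passed without control replicate 1 or MGT replicate 2 (largest adjusted p = 0.151) and Bdnf no longer passed without control replicate 2 or MGT replicate 1 (largest adjusted p = 0.311). On removal of a single library, Smarcd3 no longer passed without MGT replicate 2 (adjusted p = 0.0506).

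Retinoid and steroid genes had 7 of 14 lower and 2 higher (1 without MGT replicate 2 or control replicate 1). Hsd11b1, which regenerates active glucocorticoid, went from 148 and 158 to 109 and 110.2 (-0.48 ± 0.05), and Fkbp5, a glucocorticoid target, fell by 0.39, while the retinaldehyde dehydrogenase Aldh1a3 rose by 0.81. Of 6 aryl hydrocarbon receptor genes 3 were lower, Cyp1b1, Nqo1 (-0.48) and Ahr itself (-0.48), and 2 were higher (none without MGT replicate 2, 1 without control replicate 1), Tiparp (0.20) and Arnt (0.10). The p53 list held 5 of 17 higher, led by Sesn1 (0.50), Perp (0.41) and Ccng1, from 483 and 474 to 591 and 623 (0.34), and 4 lower, led by Gdf15 (-0.47) and Bbc3 (-0.35). The photoreceptor matrix gene Impg1, chosen after its values were seen because it had the largest change of all genes tested, read 1.20 and 0.953 in control and 8.85 and 9.42 with MGT (2.61 ± 0.13, adjusted p = 1.21e-12), at 0.0103 scaled CPM in fresh fibroblasts and 0.00649 in fresh cardiomyocytes. When single libraries were dropped, Tiparp no longer passed without MGT replicate 2 (adjusted p = 0.0501) and Arnt no longer passed without control replicate 1 or MGT replicate 2 (largest adjusted p = 0.316).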
